A study of Mus musculus with 4 samples.

Results

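The genes described here are 31 genes of B cell identity and of signalling through the B cell receptor, chosen by name and found once each among the 54752 gene IDs of the count table. RNA was sequenced from mouse abdominal aortic grafts 4 weeks after transplantation, with 2 libraries of a group called ISO and 2 of a group called ALLO. ALLO grafts are allografts undergoing chronic rejection per the series title, and the labels do not spell out ISO. All grafts are labelled aortic tissue, and the labels used here name no strain, sex, age, genotype or drug for either group, and nothing in them tells if replicates were taken from different animals. The p-values therefore measure only the spread between these libraries, which may in part be technical.

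B cells read antigen with a membrane immunoglobulin that has almost no cytoplasmic tail of its own. It signals through a partner pair, Ig-alpha and Ig-beta, whose tails are phosphorylated by Src family kinases and then bind the kinase Syk. Syk, the kinase Btk and the adaptor Blnk switch on phospholipase C gamma 2, and from there calcium and NF-kappaB. Co-receptors such as complement receptor 2 lower the threshold for this signal, while receptors such as Cd22 and Cd72 recruit phosphatases that raise it. The transcription factors Ebf1 and Pax5 set up and hold B cell identity. In allografts B cells are known for presenting antigen, for forming lymphoid aggregates with T cells and for giving rise to cells that secrete antibody. Many parts of the signalling pathway are not particular to B cells: Syk, Btk, Plcg2, Pik3ap1 and others also work in macrophages and dendritic cells. From textbook knowledge the 31 genes were therefore divided into 15 expressed mainly in the B lineage, 11 shared with myeloid cells and 5 shared with T cells or non-immune cells.

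The sequences just upstream of these genes are shown because 30 of the 31 were higher in both ALLO libraries than in both ISO libraries and B lineage factors are known to act near such start sites. RefSeq windows of 250 bases before the start (build GRCm38.p6) were at hand for 27 of the 31 genes, as 33 windows. They were searched on both strands for an octamer (ATTTGCAT), the motif bound by Oct factors, for an EBF motif (TCCC and GGGA set 2 bases apart), an E box (CAGGTG) and an ETS motif (GAGGAAGT). None of the matches overlapped another. An E box was in 13 of 33 windows (39.4%), against 17.2% of all 32851 windows. The octamer was in 2 windows (6.06% against 1.6%), the ETS motif in 3 (9.09% against 2.44%) and the EBF motif in 1 (3.03% against 0.779%). A match is a description of these letters and not evidence of binding. Not all windows are free of exons: those of Cd38 and Blnk, and 1 each of Syk and Ebf1, are annotated exon over all 250 bases. The octamer and E box of Blnk and 1 E box of Syk lie in such windows. The windows below, for a surrogate light chain relative and for 2 Fc receptor family members, hold no annotated exon base, and capitals mark the octamer, the E box and the ETS motif (on the opposite strand) in turn. The Vpreb3 window lies inside the bounds of the gene as counted.
Vpreb3, chr10:75948050-75948299, plus strand: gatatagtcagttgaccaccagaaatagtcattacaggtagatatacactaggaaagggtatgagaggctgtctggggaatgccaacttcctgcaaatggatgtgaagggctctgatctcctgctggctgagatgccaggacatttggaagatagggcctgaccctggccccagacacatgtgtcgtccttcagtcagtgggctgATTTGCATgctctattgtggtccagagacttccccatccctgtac
Fcrla, chr1:170927584-170927833, minus strand: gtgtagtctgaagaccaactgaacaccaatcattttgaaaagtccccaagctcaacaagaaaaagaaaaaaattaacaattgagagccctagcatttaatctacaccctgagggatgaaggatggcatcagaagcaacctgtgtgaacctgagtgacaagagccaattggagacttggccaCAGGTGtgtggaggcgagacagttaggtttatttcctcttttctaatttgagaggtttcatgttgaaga
Fcrl1, chr3:87376137-87376386, plus strand: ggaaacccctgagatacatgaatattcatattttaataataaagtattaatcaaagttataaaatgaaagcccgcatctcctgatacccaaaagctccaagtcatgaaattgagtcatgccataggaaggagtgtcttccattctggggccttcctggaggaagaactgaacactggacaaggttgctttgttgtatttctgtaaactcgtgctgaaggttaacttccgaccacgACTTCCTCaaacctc
Of Cd79a and Cd22, whose windows include exon bases of longer transcripts, only the 30 bases around 1 match each are given, with the E box of Cd79a and the EBF motif of Cd22 in capitals.
Cd79a, chr7:24897331-24897360, plus strand: ttgtggccagccCAGGTGcagggcagttcc
Cd22, chr7:30879058-30879087, minus strand: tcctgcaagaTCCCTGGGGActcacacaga

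The libraries held between 17532344 and 20194854 counts. ISO replicate 1 stood apart from the other libraries by its 10647 counts of Xist, the X inactivation transcript, and 0 of the Y-linked gene Ddx3y. Elsewhere Xist did not exceed 8 counts, and Ddx3y had 2105 or more. ISO replicate 1 thus had a female pattern and the other libraries a male one. Between the ISO libraries, sex cannot be told apart from other differences. Without ISO replicate 2, a female-pattern ISO library is set against male-pattern ALLO libraries. The smooth muscle markers Myh11, Acta2, Cnn1, Myocd, Lmod1 and Smtn, which check the labelled tissue, summed to 28261 and 28339 CPM (read counts brought to a common library size, with TMM factors for composition) in ISO replicates 1 and 2 and to 1157 and 2402 in ALLO replicates 1 and 2. All 6 of them were lower in ALLO. In bulk tissue fewer cells of a type and less RNA per cell cannot be told apart.

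Of the 31 genes, 17 were higher in ALLO grafts and none was lower (edgeR quasi-likelihood test, Benjamini-Hochberg adjusted p under 0.05 over 16498 genes), where 18.4% of all genes tested were higher and 14.8% lower. The higher genes were 10 of the 11 shared with myeloid cells, 4 of the 15 expressed mainly in the B lineage and 3 of the 5 in the remaining class. The median log2 change was 4.34, 3.78 and 2.15 in these classes and 3.75 over all 31, against 0.03 over all genes tested. The medians of the first 2 classes thus lay near each other although their counts of calls did not. No test of the difference between the classes was made. In both ALLO libraries 30 of the 31 genes were above both ISO libraries, as were 37.1% of all genes tested, and Ebf1 was below, as were 35.4%. All 31 genes passed the filter on low counts, but 15 did so only with the help of the ALLO libraries, since 13 reached its level in 1 ISO library and 2 in none. Of the 16 that reached it in both ISO libraries, 12 were higher. Bank1 was the only gene expressed mainly in the B lineage among these 16, and it was not called. The B lineage genes that were called (Cr2, Fcrla, Fcmr and Fcrl1) thus passed the filter only with the help of the ALLO libraries.

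**Figure D1:**
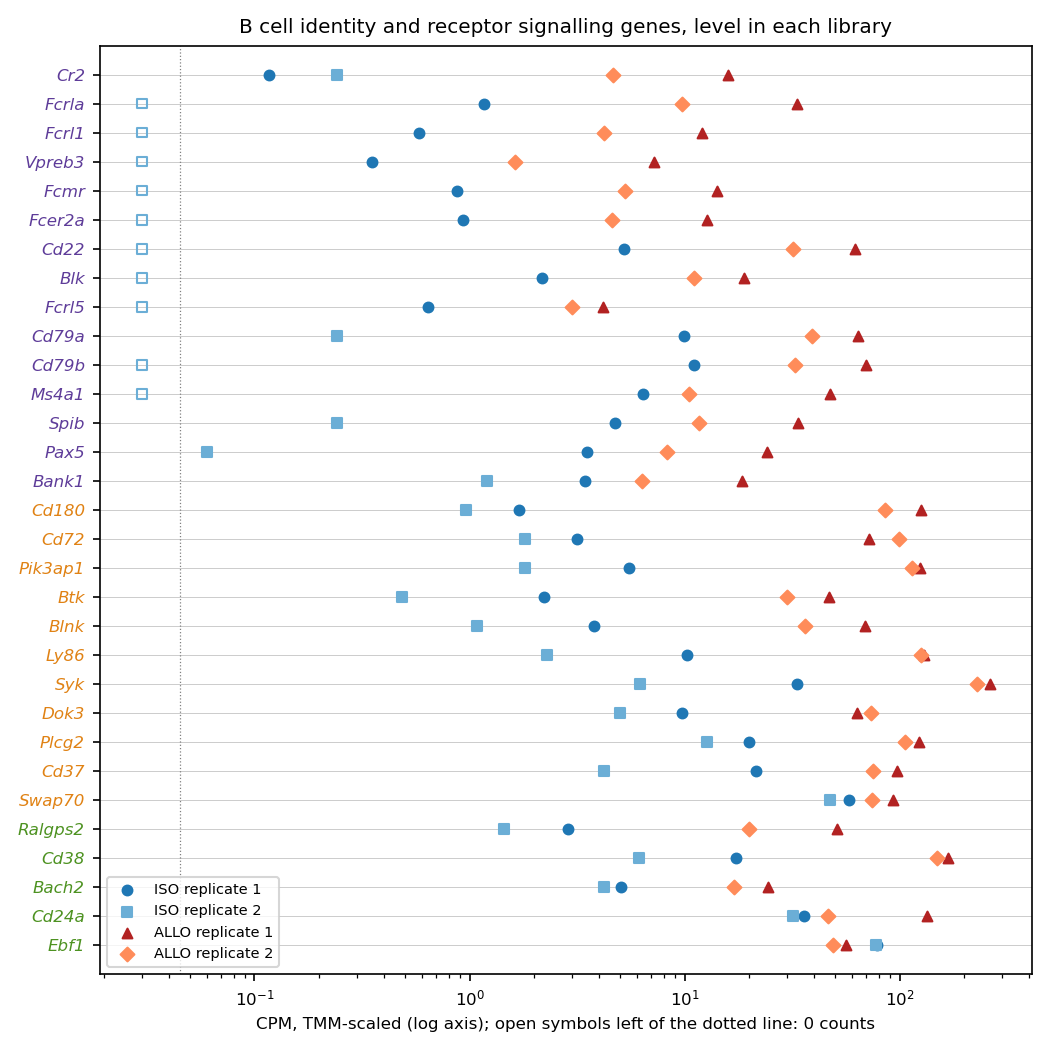
Level of each of the 31 genes in each of the 4 libraries, as TMM-scaled CPM on a log axis, with gene names coloured by class (purple: mainly B lineage, orange: shared with myeloid cells, green: shared with T or non-immune cells) and open symbols for 0 counts. Both ALLO libraries lie to the right of both ISO libraries for 30 genes, and the 10 open symbols all belong to ISO replicate 2 and to B lineage genes.

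The number of higher genes depended on single libraries. When 1 library is removed its group holds a single library, which is assumed to vary like those of the other group, so these fits and every p quoted from them below carry no spread between ISO libraries, or none between ALLO libraries. With ISO replicate 1 removed it was 28 (background 17.4%), and with ISO replicate 2 removed 25 (14.8%). With ALLO replicate 1 removed it was 12 (12.1%), and with ALLO replicate 2 removed 17 (14.2%). Removing ISO replicate 1, and with it the spread between the ISO libraries, cost none of the 17 calls and added 11, among them Cd79a, Cd79b, Pax5, Ms4a1 and Cd22. Removing ISO replicate 2 also cost none and added 8. Removing ALLO replicate 1 cost those of Cd37, Fcrla, Fcmr, Fcrl1 and Syk. Removing ALLO replicate 2 cost those of Cd37, Fcmr, Fcrl1 and Syk and added Vpreb3, Cd24a, Bank1 and Swap70. Higher in all 5 fits were Bach2, Cr2, Cd72, Cd38, Cd180, Ly86, Btk, Blnk, Plcg2, Pik3ap1, Dok3 and Ralgps2. Of these genes Cr2 alone is a B lineage gene by the division above. The share of all genes tested that were higher in all 5 fits was not computed. Removing ISO replicate 1 took the median log2 change to 6.04, or 5.30 with the 10 genes then at 0 counts in ISO set at their lower bound. Removing ISO replicate 2 took it to 2.88.

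Other tests and scalings gave 20 higher genes and 1 lower (the Wald test of DESeq2, background 22.1% and 17.9%), 26 higher and 0 lower with no filter (11.9% and 9.42%) and 21 higher with scaling by library size alone (21.5%). Against a fold of 1.5, 14 were higher and 0 lower (13.6% and 9.49%). No gene of the 31 was lower without ALLO replicate 1 (10.1% of all genes).

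**Figure D2:**
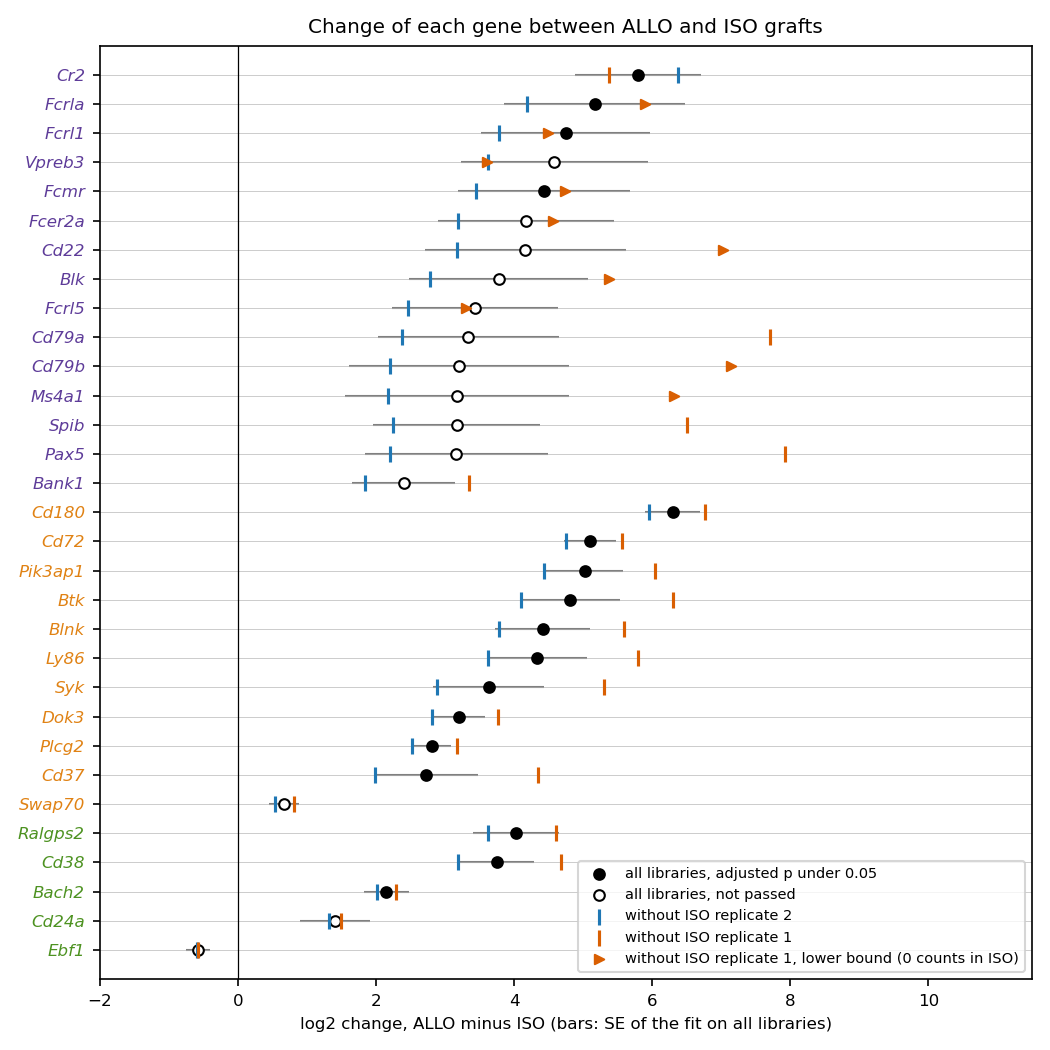
Fitted log2 change between ALLO and ISO for each gene, with its SE as a bar, filled where edgeR's adjusted p was under 0.05, and the change without either ISO library as a tick or, where ISO was then at 0 counts, as an arrowhead at the lower bound. B lineage genes such as Cd79a move far to the right without ISO replicate 1 and have wide bars, while Cd180, Cd72 and Plcg2 keep short bars and nearby ticks.

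The signalling pair of the B cell receptor was measured in 3 of the 4 libraries and was close to absent in the other. Cd79a, which encodes Ig-alpha (ENSMUSG00000003379.7, chromosome 7, 24897381 to 24902197, mm10), was at 9.94 CPM in ISO replicate 1, 0.241 in ISO replicate 2, 64.2 in ALLO replicate 1 and 39.2 in ALLO replicate 2. Cd79b, which encodes Ig-beta (ENSMUSG00000040592.11, chromosome 11, 106311341 to 106314762), was at 11.1, 0, 69.6 and 32.5 CPM in the same order. Both ALLO libraries were above both ISO libraries for each gene, but the 2 ISO libraries lay further apart in fold than ISO replicate 1 lay from ALLO replicate 2. Cd79a averaged 51.7 ± 17.7 CPM (SD, n = 2) in the ALLO libraries and 5.09 ± 6.86 CPM (SD, n = 2) in the ISO libraries, a log2 change of 3.34 ± 1.31 (SE) that did not pass (edgeR adjusted p = 0.111). The change of Cd79b was 3.20 ± 1.59 (edgeR adjusted p = 0.185). Against ISO replicate 2 alone, with the spread taken from the ALLO libraries, Cd79a passed (edgeR adjusted p = 2.54e-05) at a ratio of 211 (95% counting interval 58.3 to 1745), which rests on 4 counts in that library. Cd79b was then at least 141-fold higher, a bound set by 6 counts (3 read pairs) per library that, like the other bounds, covers counting error only. Against ISO replicate 1 alone, Cd79a was 5.20-fold and Cd79b 4.62-fold higher (edgeR adjusted p = 0.00338 and 0.00990, the spread again from ALLO alone), although the ISO libraries lay at least 30.5-fold apart for Cd79b. Without ALLO replicate 1 the change of Cd79b was 6.05-fold (edgeR adjusted p = 0.390).

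Vpreb3, whose product resembles the surrogate light chain and binds the receptor inside B cell precursors (ENSMUSG00000000903.3, chromosome 10, 75943057 to 75949657), had 6 and 0 counts in the ISO libraries and 140 and 36 in the ALLO libraries. The ratio of its summed counts was 23.8 (95% counting interval 7.88 to 118), and the fitted change did not pass (edgeR adjusted p = 0.0538). It passed with either ISO library removed (edgeR adjusted p = 0.00609 without replicate 1, 0.0412 without replicate 2). Removing ALLO replicate 2 also took it past the threshold (0.0491), and removing ALLO replicate 1 did not (0.207). Cd79a, Cd79b and Vpreb3 share no exonic base with another gene.

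Among the transcription factors Pax5 and Spib followed the receptor genes, whereas Ebf1 did not. Pax5, which commits precursors to the B lineage (ENSMUSG00000014030.15, chromosome 4, 44524757 to 44710487), was at 3.51 and 0.0604 CPM in ISO replicates 1 and 2 and at 24.0 and 8.26 in ALLO replicates 1 and 2. Its log2 change of 3.17 ± 1.33 did not pass (edgeR adjusted p = 0.130). Spib, an ETS factor of B cells and plasmacytoid dendritic cells, was at 4.74, 0.241, 33.5 and 11.6 CPM in the same order, a change of 3.17 ± 1.21 (edgeR adjusted p = 0.104). ALLO replicate 1 was the highest and ISO replicate 2 the lowest library for both genes. Each passed against ISO replicate 2 alone, with the spread taken from ALLO (edgeR adjusted p = 4.42e-04 and 4.49e-04). The ratio there was 260 for Pax5 (95% counting interval 23.1 to 5142), from 1 count in ISO, and 90.7 for Spib (25.0 to 751), from 4 counts. Against ISO replicate 1 alone they were 4.59- and 4.76-fold higher (edgeR adjusted p = 0.0372 and 0.0288), and with ALLO replicate 1 removed 4.75- and 4.79-fold (0.371 and 0.313).

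Ebf1, the early B cell factor that adipocytes and stromal cells also express (ENSMUSG00000057098.14, chromosome 11, 44617317 to 45008091), was at 78.5 and 77.6 CPM in ISO and 56.0 and 48.8 in ALLO. It was the one gene of the 31 with both ALLO libraries below both ISO libraries, and its ISO libraries nearly coincided. Its change of -0.58 ± 0.17 did not pass (edgeR adjusted p = 0.0572), but it passed as lower with the Wald test of DESeq2 (adjusted p = 0.0378). The summed level of 6 adipocyte markers was 704, 419, 634 and 559 CPM in ISO replicates 1 and 2 and ALLO replicates 1 and 2, and that of 5 fibroblast markers 4111, 4707, 8505 and 11768 CPM. The fibroblast markers did not move together: 1 was lower, none was higher, and their log2 changes ran from -2.27 to 1.62. The part of either marker list in the level of Ebf1 was not tested. Bach2, a repressor that holds back plasma cell differentiation and also acts in T cells (ENSMUSG00000040270.16, chromosome 4, 32238804 to 32586108), was at 5.09, 4.22, 24.5 and 16.9 CPM and rose 4.44-fold (log2 change 2.15 ± 0.32, edgeR adjusted p = 0.00963). A further gene, Bach2os, overlaps 5.40% of its exonic bases on the opposite strand.

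Of 10 co-receptor and surface genes 6 were higher, and of the 4 among them that are expressed mainly in the B lineage Cr2 alone was. Cr2, the receptor for complement C3d that lowers the threshold of B cell activation and that follicular dendritic cells also carry (ENSMUSG00000026616.15, chromosome 1, 195136811 to 195176716), had 2 and 4 counts in the ISO libraries and 310 and 102 in the ALLO libraries. It is the one B lineage gene with fewer counts in ISO replicate 1 than in ISO replicate 2. The ratio of summed counts was 55.7 (95% counting interval 18.8 to 272), and the gene rose with edgeR adjusted p = 0.0106. The fitted change was 55.5-fold. It became 83.3-fold when ISO replicate 2 was removed, 86.8-fold when ALLO replicate 2 was and 25.5-fold when ALLO replicate 1 was. With limma-voom the call was lost (adjusted p = 0.0586). The 4 follicular dendritic cell markers summed to 2367, 2211, 577 and 792 CPM in ISO replicates 1 and 2 and ALLO replicates 1 and 2. Nearly all of each sum came from Mfge8 and Clu, which were lower in ALLO, so it does not follow the list as a whole. Cxcl13 did not pass, and Madcam1 had 0 counts in both ISO libraries and 8 and 10 in ALLO. The part of follicular dendritic cells in the Cr2 difference was not tested.

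Ms4a1, which encodes CD20 (ENSMUSG00000024673.9, chromosome 19, 11249675 to 11266241), was at 6.37 and 0 CPM in ISO and 47.2 and 10.5 in ALLO. ALLO replicate 2 was closer to ISO replicate 1 than to ALLO replicate 1 for this gene, and the change of 3.17 ± 1.62 did not pass (edgeR adjusted p = 0.196). It was at least 79.7-fold higher without ISO replicate 1 (edgeR adjusted p = 4.57e-04) and did not pass in any other fit that left out 1 library, falling to 3.40-fold when ALLO replicate 1 was removed (0.553). Fcer2a, which encodes the low-affinity IgE receptor CD23 of mature follicular B cells, was at 0.936, 0, 12.6 and 4.58 CPM in the order ISO replicates 1 and 2, ALLO replicates 1 and 2 (change 4.17 ± 1.27, edgeR adjusted p = 0.0590). It passed with either ISO library removed (edgeR adjusted p = 8.33e-04 without replicate 1, 0.0158 without replicate 2), and was 9.89-fold higher with ALLO replicate 1 removed (0.202).

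Cd22, a sialic acid lectin that recruits the phosphatase SHP-1 to restrain the receptor (ENSMUSG00000030577.14, chromosome 7, 30865402 to 30880342), was at 5.20 and 0 CPM in ISO and 62.0 and 32.0 in ALLO. Its change of 4.17 ± 1.45 did not pass (edgeR adjusted p = 0.0839), and it passed at least 130-fold higher without ISO replicate 1 (edgeR adjusted p = 2.54e-05) and 9.02-fold higher without ISO replicate 2 (0.00156). Cd72, another inhibitory lectin, found on B cells and also on macrophages (ENSMUSG00000028459.11, chromosome 4, 43446462 to 43454628), was at 3.16 and 1.81 CPM in ISO and 72.0 and 99.1 in ALLO. It rose 34.3-fold (5.10 ± 0.37, edgeR adjusted p = 0.00284). The order of the ALLO libraries was thus opposite for these inhibitory receptors, with Cd22 higher in replicate 1 and Cd72 in replicate 2. Tesk1, on the opposite strand, covers 41.6% of the exonic bases of Cd72, and which strand was counted is not stated in the sources at hand, so the level of Cd72 is uncertain. The overlap was between 0.369% and 9.50% for Pax5, Bach2, Cd22, Cd37, Cd180 and Swap70.

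Cd180 had the highest fitted change of the 31 genes with all 4 libraries in edgeR, though not with limma-voom or with an ISO library removed. It encodes RP105, a Toll-like receptor homologue of B cells, macrophages and dendritic cells (ENSMUSG00000021624.9, chromosome 13, 102693558 to 102739629), and was at 1.70 and 0.966 CPM in ISO and 125 and 85.7 in ALLO, 78.8-fold higher (6.30 ± 0.40, edgeR adjusted p = 0.00216). Ly86, which encodes MD-1, the partner that RP105 needs at the cell surface, was at 10.3, 2.29, 129 and 126 CPM in ISO replicates 1 and 2 and ALLO replicates 1 and 2. It rose 20.2-fold (4.34 ± 0.72, edgeR adjusted p = 0.0120), 55.4-fold without ISO replicate 1 and 12.4-fold without ISO replicate 2. Both partner genes of this complex were therefore higher, and the difference between their fitted folds was not tested. In ISO replicate 1 Ly86 was at 8.19% and Cd180 at 1.98% of the level in ALLO replicate 2.

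Cd37, a tetraspanin of B cells and other leukocytes, was at 21.6, 4.22, 96.9 and 74.8 CPM and rose 6.65-fold (edgeR adjusted p = 0.0445), or 20.3-fold without ISO replicate 1 and 3.98-fold without ISO replicate 2. With ALLO replicate 1 removed it no longer passed (edgeR adjusted p = 0.120), nor with ALLO replicate 2 removed (0.0872). The robust edgeR fit (0.0757), a test against a fold of 1.5 (0.0646) and a filter on the mean count (0.0550) also ended the call. Cd38, an ectoenzyme that consumes NAD and that smooth muscle, macrophages and plasma cells also express (ENSMUSG00000029084.5, chromosome 5, 43868553 to 43912375), was at 17.2, 6.16, 168 and 148 CPM. It rose 13.5-fold (3.75 ± 0.53, edgeR adjusted p = 0.00817), and 25.6-fold without ISO replicate 1. Cd24a, which encodes the heat-stable antigen of B cell precursors, neutrophils, red cell precursors and epithelia, was at 35.9, 32.0, 133 and 46.6 CPM. ALLO replicate 1 stood alone for this gene, and the change of 1.41 ± 0.50 did not pass (edgeR adjusted p = 0.0890), although it did without ALLO replicate 2 (3.98-fold, edgeR adjusted p = 0.0103). With ALLO replicate 1 removed it was 1.40-fold higher (0.141). Of the neutrophil markers, 5 summed to 137, 12.9, 301 and 149 CPM in the same order, and their part in the level of Cd24a was not tested.

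The 4 Fc receptor family genes had 0 counts in ISO replicate 2 and at most 20 in ISO replicate 1. Fcrla, an intracellular relative of Fc receptors in B cells (ENSMUSG00000038421.13, chromosome 1, 170917576 to 170927583), had 20 and 0 counts in ISO and 646 and 215 in ALLO. It rose 36.0-fold (5.17 ± 1.31, edgeR adjusted p = 0.0358). With ISO replicate 1 removed it was at least 59.3-fold higher, with ISO replicate 2 removed 18.3-fold, with ALLO replicate 1 removed 16.9-fold and with ALLO replicate 2 removed 56.6-fold. Fcmr, which encodes the receptor for IgM (chromosome 1, 130865669 to 130880791), had 15, 0, 274 and 116 counts and rose 21.6-fold (edgeR adjusted p = 0.0476, 10.9-fold without ISO replicate 2 and 12.1-fold without ALLO replicate 1). Fcrl1, an Fc receptor-like protein of B cells (chromosome 3, 87376387 to 87402934), had 10, 0, 234 and 93 counts and rose 26.9-fold (edgeR adjusted p = 0.0374, 13.7-fold with ISO replicate 2 removed, 14.4-fold with ALLO replicate 1 removed, 40.5-fold with ALLO replicate 2 removed). These 3 genes no longer passed when ALLO replicate 1 was removed (edgeR adjusted p = 0.132, 0.169 and 0.138) or with limma-voom (adjusted p = 0.0846, 0.0626 and 0.0615), and Fcmr and Fcrl1 also did not without ALLO replicate 2 (edgeR adjusted p = 0.0655 and 0.0504). Fcrla and Fcmr were also lost with the Wald test of DESeq2 (adjusted p = 0.0818 and 0.113) and with edgeR's robust fit (0.0603 and 0.0552), whereas Fcrl1 passed in both. Against a fold of 1.5, Fcmr (edgeR adjusted p = 0.0641) and Fcrl1 (0.050002) did not pass, nor did Fcmr with a filter on the mean count (0.0618). Fcrl5, its neighbour on chromosome 3 (87435773 to 87500678) and a marker of marginal zone B cells, had 11, 0, 81 and 66 counts and did not pass (3.44 ± 1.20, edgeR adjusted p = 0.0848). It passed with the Wald test of DESeq2 (adjusted p = 0.0221), with limma-voom (0.0452), with no filter (edgeR adjusted p = 0.0460) and without ISO replicate 1 (0.00273). The ALLO libraries of Fcrl5 were nearer to each other than those of Fcrl1, at 1.39-fold against 2.85-fold.

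Inside the cell 7 of 10 signalling genes rose, and Blk, Bank1 and Swap70 did not pass. Syk, the kinase that docks on phosphorylated Ig-alpha and Ig-beta and also on Fc receptors of myeloid cells (ENSMUSG00000021457.14, chromosome 13, 52583173 to 52648792), was at 33.3, 6.22, 262 and 228 CPM in ISO replicates 1 and 2 and ALLO replicates 1 and 2. It rose 12.4-fold (3.63 ± 0.80, edgeR adjusted p = 0.0255), or 39.4-fold without ISO replicate 1 and 7.36-fold without ISO replicate 2. With 1 ALLO library removed it no longer passed (edgeR adjusted p = 0.0689 without replicate 1, 0.0592 without replicate 2). The ALLO libraries were close together and the ISO libraries 5.35-fold apart.

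Btk, the kinase whose loss impairs B cell development (ENSMUSG00000031264.13, chromosome X, 134542336 to 134583570), was at 2.22 and 0.483 CPM in ISO and 46.9 and 30.005 in ALLO. It rose 28.2-fold (4.82 ± 0.72, edgeR adjusted p = 0.00951), or 78.6-fold without ISO replicate 1 and 17.2-fold without ISO replicate 2. Blnk, the adaptor that brings Btk and phospholipase C together (chromosome 19, 40928927 to 40994535), was at 3.80, 1.09, 68.7 and 36.3 CPM and rose 21.4-fold (edgeR adjusted p = 0.0104, 48.0-fold without ISO replicate 1 and 13.8-fold without ISO replicate 2). Plcg2, the phospholipase itself (chromosome 8, 117498291 to 117635142), was at 19.9, 12.7, 123 and 106 CPM and rose 7.02-fold (2.81 ± 0.28, edgeR adjusted p = 0.00438). Of these 3 genes Plcg2 had the highest ISO levels and the smallest fold.

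Pik3ap1, which encodes the adaptor BCAP that links the receptor and Toll-like receptors to PI3 kinase (ENSMUSG00000025017.9, chromosome 19, 41274218 to 41385070), was at 5.50, 1.81, 125 and 114 CPM. It rose 32.5-fold (5.02 ± 0.56, edgeR adjusted p = 0.00506), or 65.6-fold without ISO replicate 1 and 21.7-fold without ISO replicate 2. Dok3, an adaptor that dampens the calcium signal, was at 9.76, 5.01, 63.3 and 73.4 CPM and rose 9.24-fold (edgeR adjusted p = 0.00537). Ralgps2, a guanine nucleotide exchange factor for Ral, was at 2.87, 1.45, 50.9 and 19.8 CPM and rose 16.3-fold (edgeR adjusted p = 0.0104, 9.39-fold without ALLO replicate 1). Activating and inhibitory adaptors of the pathway were thus both higher.

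Blk, a Src family kinase largely confined to B cells (chromosome 14, 63372836 to 63417037), was at 2.16 and 0 CPM in ISO and 19.0 and 11.0 in ALLO. Its change of 3.78 ± 1.29 did not pass (edgeR adjusted p = 0.0795), though it did without ISO replicate 1 (at least 41.4-fold, edgeR adjusted p = 9.48e-05) and without ISO replicate 2 (6.91-fold, 0.00580). Bank1, a B cell scaffold for Src kinases, was at 3.45, 1.21, 18.4 and 6.31 CPM (2.40 ± 0.75, edgeR adjusted p = 0.0625) and passed without ISO replicate 1 (10.2-fold, 0.00847) and without ALLO replicate 2 (8.02-fold, 0.0431), and was 2.77-fold higher without ALLO replicate 1 (0.225). Swap70, a regulator of actin and class switching that many cells express, was at 58.0, 47.6, 93.4 and 74.5 CPM. Its change of 0.67 ± 0.21 was the smallest rise among the 31 genes and did not pass (edgeR adjusted p = 0.0656), though it did without ALLO replicate 2 (0.0485).

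Libraries of one group differed from each other in these genes. In ISO, replicate 1 was above replicate 2 for 30 of the 31 genes, against 54.3% of all genes tested, and more than 2-fold above for 18, against 9.30%. These were 11 of the 15 B lineage genes, 6 of the 11 genes shared with myeloid cells and 1 of the 5 others. With 0 counts in ISO replicate 2, the gap was at least 30.5-fold for Cd79b, 17.6-fold for Ms4a1 and 14.4-fold for Cd22. With 4 counts there, it was 41.2-fold for Cd79a (95% counting interval 11.1 to 345) and 19.6-fold for Spib (5.16 to 169). For Pax5, with 1 count, it was 58.1-fold (4.83 to 1186). B lineage genes summed to 51.1 and 1.99 CPM in ISO replicates 1 and 2, from 874 and 33 counts, and 10 of the 15 had no count in replicate 2. ISO replicate 1 was also the library with Xist counts, and the part of that difference in the gap was not tested.

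In ALLO, replicate 1 was above replicate 2 for 29 of the 31 genes, against 49.5% of all genes tested, Cd72 and Dok3 being the exceptions. It was more than 2-fold above for 13, against 7.44%, namely 11 B lineage genes, Cd24a and Ralgps2, and for none of the 11 genes shared with myeloid cells. The median ratio was 2.85 for B lineage genes and 1.16 for those shared with myeloid cells, and the largest was 4.48 for Ms4a1. B lineage genes summed to 437 and 185 CPM in ALLO replicates 1 and 2, and the genes shared with myeloid cells to 1205 and 1048. In the ratio of mean ALLO level to ISO replicate 1 the classes also lay apart, with medians of 6.93 for B lineage genes and 12.4 for genes shared with myeloid cells, but their ranges overlapped (3.59 to 87.9 and 1.45 to 62.3).

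**Figure D3:**
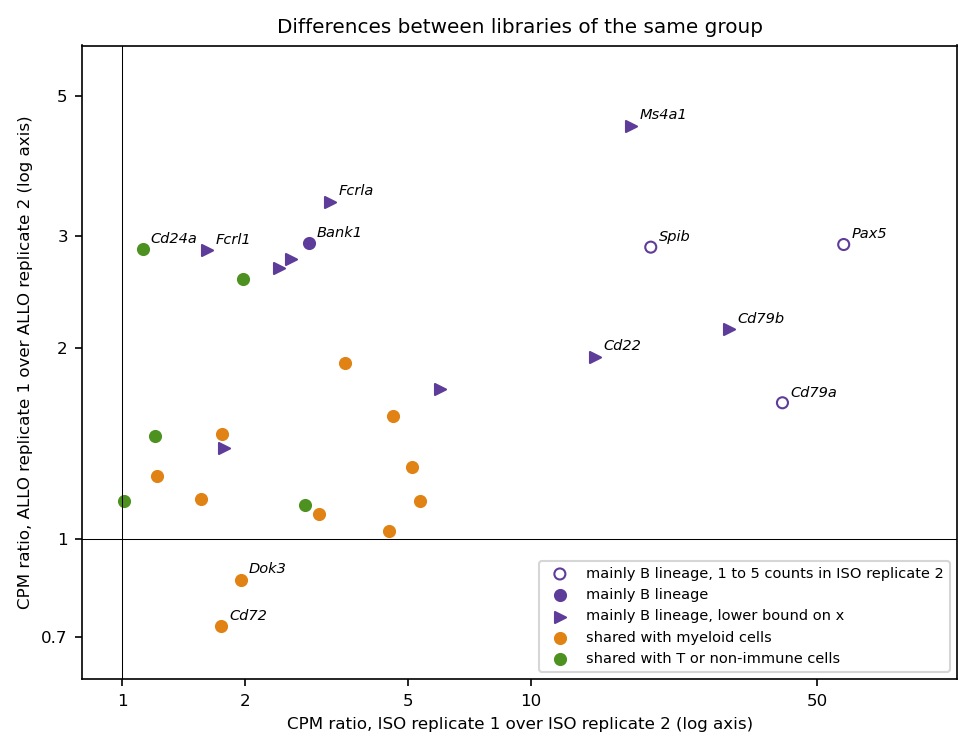
Ratio of CPM between the libraries of each group, ISO on the x axis and ALLO on the y axis, both log, for the 29 genes with more than 6 counts in at least 1 library of each group, with arrowheads where ISO replicate 2 had 0 counts and the x value is a lower bound, and open circles where it had 1 to 5. B lineage genes spread to the right (Cd79b at 30.5 or more) and upward (Ms4a1 at 4.48), and genes shared with myeloid cells lie between 0.727 and 1.89 on the y axis.

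Several immune marker lists moved along with these genes, and other lists did not. All 6 smooth muscle markers were lower in ALLO, as were 2 of 4 endothelial and 1 of 5 fibroblast markers, with none higher. Of the markers tested, 1 of 5 for adipocytes and 1 of 4 for neutrophils were higher, where 18.4% of all genes tested were higher and 14.8% lower. In lists this short a count of 1 does not tell the list from all genes. Macrophage markers, 9 of 10 of which were higher in ALLO, summed to 1081, 436, 9321 and 8064 CPM in ISO replicates 1 and 2 and ALLO replicates 1 and 2, with Lyz2 the most abundant. Conventional dendritic cell markers (4 of 6 higher) summed to 40.2, 20.6, 215 and 338 CPM. Plasmacytoid dendritic cell markers (3 of 5 tested were higher) summed to 84.7, 71.9, 292 and 113 CPM, and their defining gene Siglech had 6, 0, 194 and 127 counts. In ISO that sum came almost wholly from 1 gene, as the others had at most 6 counts in each ISO library. In ALLO replicate 1 a large part came from Klk1, described at the end, so the sum does not follow the list as a whole. The part of the macrophage and dendritic cell lists in the rise of the genes shared with myeloid cells, or in that of Spib, was not tested. T cell markers (10 of 10 higher) summed to 16.7, 3.98, 409 and 362 CPM, and plasma cell markers (7 of 9 higher) to 309, 204, 3799 and 1447 CPM. Immunoglobulin genes took 0.0699%, 0.00136%, 11.2% and 3.08% of the counts. ALLO replicate 1 was thus well above replicate 2 in plasma cell markers and immunoglobulin, as in the B lineage genes, and close to it in T cell markers. Erythroid markers, a measure of blood, summed to 1809, 498, 2326 and 4154 CPM. Of the ISO libraries replicate 1 had the higher erythroid sum, and its part in the gap between those libraries was not tested.

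**Figure D4:**
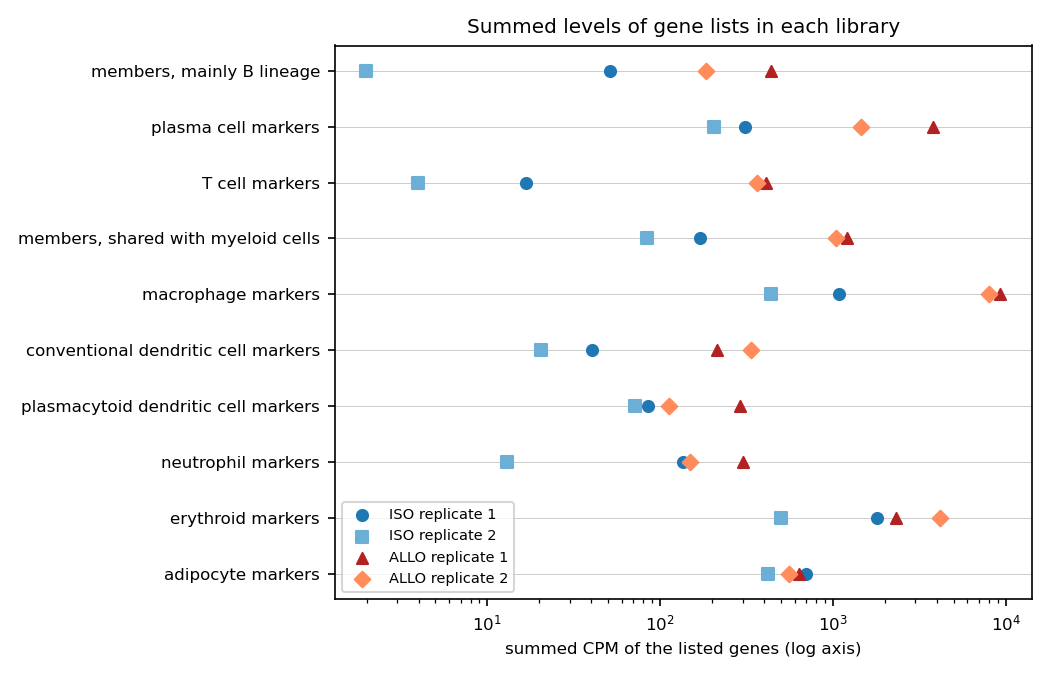
Summed CPM of 10 gene lists in each library, on a log axis, with 1 symbol per library. B lineage genes, plasma cell markers and neutrophil markers are lower in ALLO replicate 2 than in ALLO replicate 1, while T cell and macrophage markers nearly coincide in the ALLO libraries.

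Beside a given amount of Cd79a, several of the other B lineage genes, though not all, differed in amount between libraries. Levels between genes were compared per length, as TPM (counts divided by gene length and scaled to a fixed total), and as a share of the TPM of Cd79a in the same library. ISO replicate 2, with 4 counts of Cd79a, was left out. Cd79b was at 113% of Cd79a in ISO replicate 1 (95% counting interval 83.1 to 153), 110% in ALLO replicate 1 (98.9 to 123) and 84.4% in ALLO replicate 2 (73.1 to 97.3). The interval of Cd79b included the level of Cd79a in ISO replicate 1 and ALLO replicate 1 and lay below it in ALLO replicate 2. Cr2 was at 0.211% in ISO replicate 1 (0.00529 to 1.21), 4.45% in ALLO replicate 1 (3.71 to 5.32) and 2.12% in ALLO replicate 2 (1.55 to 2.84). Of 14 genes set against Cd79a, 9 had their lowest share in ISO replicate 1, but for Cr2 alone did the interval there lie below those of both ALLO libraries.

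The ALLO libraries also differed from each other in this respect. Relative to Cd79a, 13 of the 14 genes were higher in ALLO replicate 1 than in replicate 2, and for 11 of them the intervals were apart. These counts depend on the choice of Cd79a, by which all 14 genes were divided. In CPM, Cd79a itself was 1.64-fold higher in ALLO replicate 1 than in replicate 2, against a median of 2.85 for B lineage genes. No share over all genes was computed. Ms4a1 was at 17.3% (15.3 to 19.6) and 6.32% (5.11 to 7.78), and in ISO replicate 1 at 15.1% (10.4 to 21.3). Fcrla was at 43.2% (37.6 to 49.4) in ALLO replicate 1 and 20.8% (16.7 to 25.8) in ALLO replicate 2, against 9.82% (4.55 to 19.0) in ISO replicate 1. Blk, at 15.9% and 15.2% in the ALLO libraries, and Cd22, at 27.9% and 23.6%, did not separate. The intervals cover counting error in single libraries, and these genes were chosen after their values were seen.

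**Figure D5:**
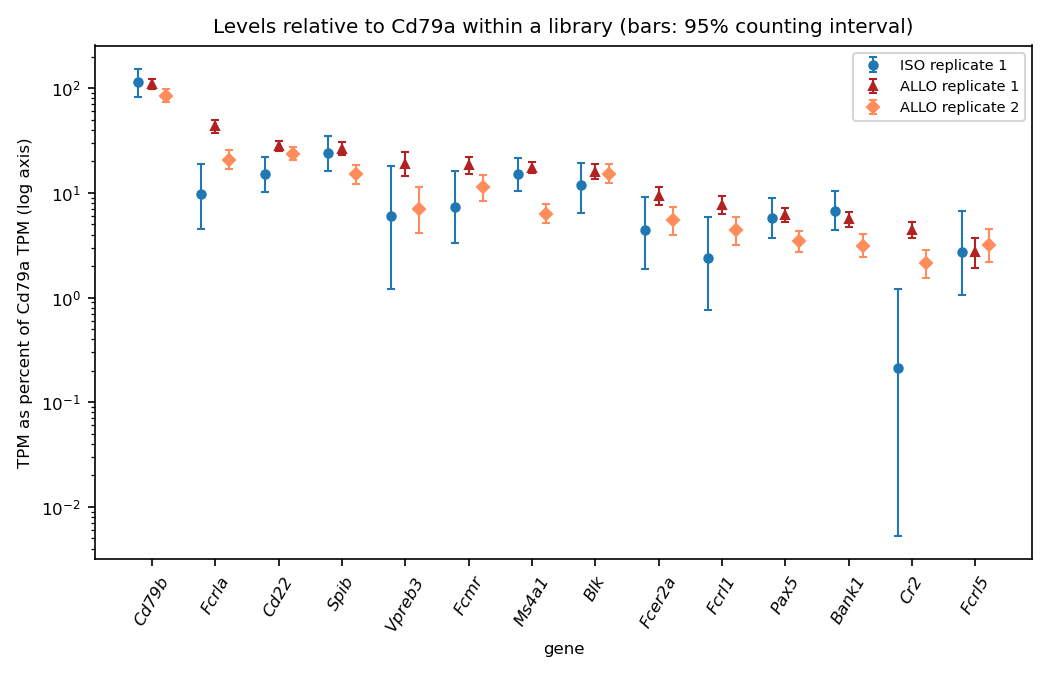
TPM of 14 B lineage genes as a percentage of the TPM of Cd79a in ISO replicate 1, ALLO replicate 1 and ALLO replicate 2, on a log axis, with 95% counting intervals as bars. Cr2 lies lowest in ISO replicate 1 (0.211%), Cd79b is near the level of Cd79a in each library, and Ms4a1 is lower in ALLO replicate 2 (6.32%) than in the other libraries shown.

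On the per-length scale the order of levels differed between libraries. In ALLO replicate 1 the highest levels were those of Cd24a (120 TPM), Cd79b (113), Pik3ap1 (111), Cd79a (102) and Cd38 (100). In ALLO replicate 2 they were those of Pik3ap1 (137 TPM), Cd38 (120), Ly86 (109), Dok3 (94.2) and Cd72 (91.4), with Cd79a sixth at 84.9. In ISO replicate 2 the genes Cd24a (39.6 TPM), Ebf1 (25.4) and Swap70 (18.8) led, all of them known from cells other than B cells, and no other gene exceeded 9.47. ISO replicate 1 had the same gene first, Cd24a at 39.2 TPM, followed by Ebf1 (22.7), Cd79b (21.8), Swap70 (20.2) and Cd79a (19.2). The lowest levels were those of Fcrl5 (2.78 TPM) and Cr2 (4.56) in ALLO replicate 1 and those of Cr2 (1.80 TPM) and Bank1 (2.66) in ALLO replicate 2.

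Other genes of the pathway were taken from lists written for this comparison. Of 53 such genes 38 were higher in ALLO and 2 lower, where 18.4% of all genes tested were higher and 14.8% lower. Their median log2 change was 2.87, against 0.03 over all genes tested. By list, 17 of 23 signalling genes, 10 of 12 inhibitory genes and 11 of 18 regulators and survival receptors were higher. Nfatc2, a calcium-dependent transcription factor, rose 9.87-fold, Rel, an NF-kappaB subunit of lymphocytes, 7.30-fold and Pik3cd, the leukocyte PI3 kinase subunit, 16.5-fold (edgeR adjusted p = 0.00283, 0.00319 and 0.00499). Pik3cd was 26.6-fold higher without ISO replicate 1. Among inhibitors the collagen receptor gene Lair1 rose 47.7-fold, Cd5 47.9-fold (116-fold without ISO replicate 1 and 30.4-fold without ISO replicate 2) and the inositol phosphatase gene Inpp5d 17.4-fold (29.6-fold without ISO replicate 1), with edgeR adjusted p = 0.00214, 0.00479 and 0.00532. Cd5 also belongs to the T cell markers above and is counted in both lists, so its rise is not particular to B cells. Irf8, a factor of B cells and dendritic cells, rose 30.3-fold, Cd40, the receptor for T cell help, 9.91-fold and the lymphoid factor gene Ikzf1 31.1-fold (63.6-fold without ISO replicate 1 and 20.6-fold without ISO replicate 2), with edgeR adjusted p = 0.00319, 0.00395 and 0.00569. The lower genes were the tetraspanin gene Cd81 (2.35-fold, edgeR adjusted p = 0.0166) and Foxo1 (1.87-fold, 0.0260). Both of these calls were lost without ISO replicate 2 (edgeR adjusted p = 0.0530 and 0.103), and that of Foxo1 without ALLO replicate 2 (0.0709).

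Some genes outside that naming rule, chosen after their values were seen, were at or near their floor in ISO replicate 2. Tnfrsf13c, which encodes the survival receptor for BAFF, had 6, 0, 416 and 143 counts in ISO replicates 1 and 2 and ALLO replicates 1 and 2, and rose with edgeR adjusted p = 0.0164, a call lost without ALLO replicate 1 (0.0591). The chemokine gene Cxcl13, which draws B cells into follicles, was at 21.4, 0.241, 21.6 and 9.40 CPM, so that ISO replicate 1 lay between the ALLO libraries (0.52 ± 1.49, edgeR adjusted p = 0.817, and 4.86e-04 without ISO replicate 1, where ISO then had 4 counts). Its receptor gene Cxcr5 was at 3.51, 0.302, 10.9 and 4.81 CPM (edgeR adjusted p = 0.201, and 0.00317 without ISO replicate 1).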

How the data were processed

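The table the authors deposited holds unnormalised counts of each library beside gene lengths. Names listed in the submitters' processing notes are featureCounts (Subread 1.6.4), R 4.0.3, DESeq2 1.30.0 and build mm10. No source used here gives the aligner, the annotation release or the strand setting. Per the labels' protocols, ribosomal RNA was removed and libraries were amplified by PCR. GENCODE M21 gave symbols for 54723 of 54752 IDs. Of the 31 genes, 24 share no exonic base with another gene. From 68.0% to 74.6% of counts between 1 and 20 were even in each library, so intervals use counts divided by 2 and the floor is 6 counts, both for counting error only (the labels name no molecular identifiers).

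Genes were filtered (filterByExpr, minimum count 10), scaled by TMM and tested with edgeR 4.0.16 (group as the only term). Replicates did not agree within sampling noise (chi-square over degrees of freedom 31.4 in ISO, 107 in ALLO). TPM was computed from the deposited lengths. All 31 genes are described. Other pathway genes named are up to 3 per list and direction with the smallest adjusted p, and of each marker list the most abundant was looked up. Genes, lists and tests were chosen with earlier results of these data known. Protein motifs were not analysed here. A gene of the pathway lists is not reported here. Alternatives were other scalings, filters and tests (DESeq2 1.42.0, limma 3.58.1, glmTreat), a replicate block, libraries left out, halved counts and removal of immunoglobulin and T cell receptor genes. Tables and plots were made in Python 3.11.15 (scipy 1.17.1, pandas 2.3.3, matplotlib 3.10.9), and models in R 4.3.3.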

Additional observations from a re-analysis of the deposited data

How the results depend on the processing

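No gene of the 31 changed direction under any of 16 alternatives. Of 496 gene-by-alternative results, 406 kept their side of the threshold, 67 passed only under the alternative and 23 were lost. The count of higher genes was 26 with no filter, and 12 to 28 with 1 library left out (main count 17). The count of lower genes was 1 with the Wald test of DESeq2 and with upper quartile scaling, in both cases Ebf1. The median log2 change ranged from 2.88 to 6.04 with 1 library left out. Over all genes, 1998 to 2878 were higher and 1668 to 2211 lower with 1 library left out, and 1565 were lower against 1.5-fold. Of the other pathway genes, 1 was lower against 1.5-fold, and 0 to 3 with 1 library left out. Scaling by library size alone moved the median of all genes to 0.22 and left 21 of the 31 higher. The cause of these differences was not tested.

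With the replicate number as a block 28 of the 31 were higher, as were 16.8% of all genes tested. The numbers are not shown to pair the libraries: the differences between replicates 1 and 2 correlated at 0.0974 between the groups, over only 2 pairs.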

Other observations

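Klk1, a kallikrein gene of the plasmacytoid dendritic cell list that is also abundant in gland ducts, had 2327 counts in ALLO replicate 1, 8 in ALLO replicate 2, and 2 and 0 in ISO replicates 1 and 2. It was singled out after its values were seen. It made up 120 of the 292 CPM of that list in ALLO replicate 1.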
